A study of Rattus norvegicus with 2 samples.

Results

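Interferon and MHC class I genes were read on 2 arrays, 1 of cultured rat aortic endothelial cells and 1 of cultured rat endocardial endothelial cells, the cells that line the chambers of the heart. The genes were the interferon gamma receptor chain Ifngr1, the transcription factor Irf1, the antiviral effectors Mx1, Mx2 and Oas1a, and the antigen presentation genes B2m, Tap1 and Tap2. They were taken as every probe set, outside the array's own controls, whose platform annotation gave exactly 1 gene symbol equal to one of these names. This gave 10 probe sets for the 8 genes, of 4736 genes, 8740 probe sets outside the controls and 7006 with exactly 1 symbol in all. A further probe set that listed B2m among several symbols was not used. Per the labels, both cell types came from the same 2 rats, were pooled by origin and grown for 2 passages at matched confluence and culture conditions, and total RNA was hybridised to Affymetrix rat U34A arrays. Neither culture received a drug, cytokine or virus that the labels name. Strain, sex and age of the rats are not given in the sources used here. Each group had 1 array of 1 pool, so the differences below carry no replicate check, none was tested and no error between cultures can be given. A probe set is a group of short probes against a transcript, and its intensity is a relative brightness that can be compared between the arrays but not between probe sets.

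Interferons are secreted proteins that cells release on infection or immune activation. Type I interferons and interferon gamma bind separate receptors, whose Janus kinases phosphorylate STAT proteins, and these STAT proteins then switch on a shared set of genes through short DNA elements near their start sites. Among the targets are antiviral proteins of the Mx and oligoadenylate synthetase families and the machinery that loads peptides on MHC class I molecules. Endothelial cells present antigen on MHC class I and increase it in response to interferon gamma.

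The 7 genes that could be measured did not share one direction. Ifngr1 was 3.55-fold brighter in endocardial cells and Mx2 was 2.64-fold brighter in aortic cells. B2m, Tap1, Tap2 and Irf1 were 1.17-fold to 1.46-fold brighter in endocardial cells, and Oas1a was 1.52-fold brighter in aortic cells. Mx1 lay under the measurement floor on both arrays. At a 2-fold difference, 1 of the 7 measured genes was higher in endocardial cells, where 5.93% of all 2935 measured genes were, and 1 was lower, where 4.16% of all were. Counted by probe sets, 1 of the 8 kept was higher and 1 lower, where 6.61% and 4.83% of all 4808 kept probe sets were. The median log2 ratio of the 7 genes, endocardial over aortic, was 0.29, beside -0.02 for all measured genes.

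Intensities of the arrays were scaled to a common trimmed mean. The floor was the median of all scaled values, 635.4, and a probe set at or under it on both arrays was left out; this removed 2 of the 10 probe sets. A stricter limit is the brightest of 38 background control probe sets, aimed at opposite strands or at other organisms, at 1742.4. Of the 10 probe sets, 2 exceeded that control on both arrays, 4 on 1 array and 4 on neither. Probe sets of the same gene differed in log2 ratio with an SD of 0.39 over 625 genes, 0.45 for the dimmer and 0.34 for the brighter genes. That SD describes agreement between probe sets on the same pair of arrays and not the spread between cultures. The ratio of 3' to 5' signal of Gapdh was 1.17 in aortic and 1.21 in endocardial cells, and that of beta-actin was 1.11 and 1.09. Of 8 endothelial marker genes on the array, Vwf, Pecam1, Kdr and Icam2 did not reach the floor on either array, and the endothelial identity of the cultures rests on the labels. Thbd was 3920.6 in aortic and 2848.2 in endocardial cells, and was the only endothelial marker of the list whose gene value exceeded the highest background control on both. This rested on 1 probe set, and the other probe set of Thbd read -149.9 and 270.4, under the floor on both arrays.

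**Figure D1:**
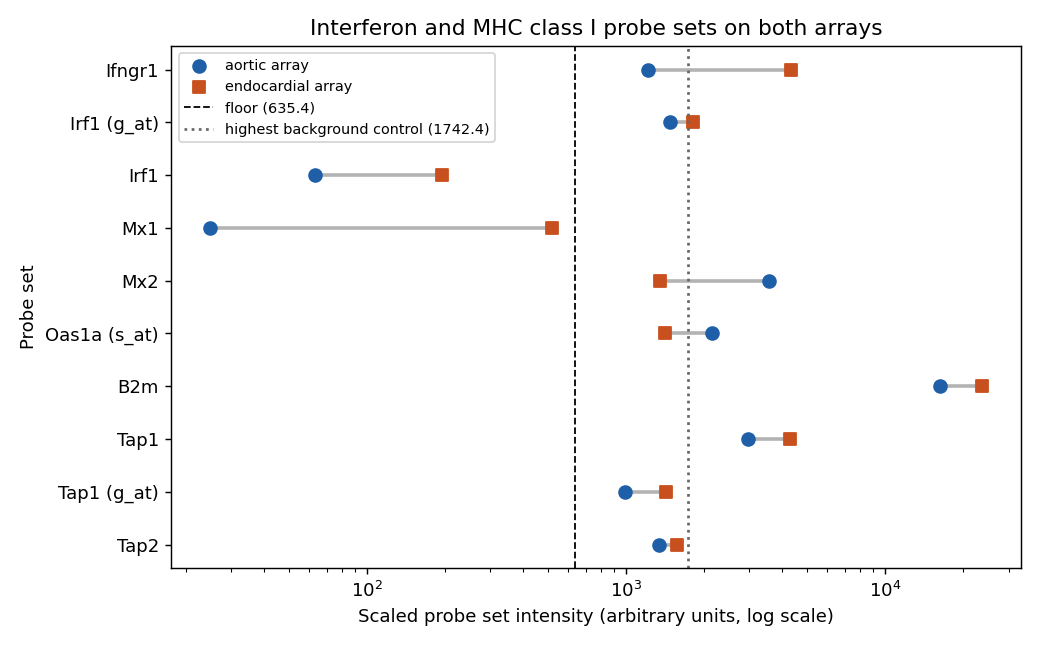
Scaled intensity (arbitrary units, log scale) of the 10 probe sets of the 8 genes, with circles for the aortic and squares for the endocardial array, 1 array each. The dashed line is the floor (635.4) and the dotted line the highest background control (1742.4). Only B2m and 1 probe set of Tap1 lie right of the dotted line on both arrays, and Mx1 lies left of the dashed line on both.

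The promoters of the genes are shown for the elements by which interferons are known to act, since genes with and without a match, and genes of both directions, stood side by side here. The interferon-stimulated response element was searched as GAAANNGAAA and the gamma-activated site as TTCNNNGAA, on both strands, from 250 bases before to 50 bases after each gene's start in RefSeq promoter sequences of assembly GRCr8. Entries matched 7 of the 8 genes, all but Mx2. The response element was found in 4 of the 7 promoters, and in 3.92% of all 33469 promoters of the table. The matches are printed 5' to 3' on the strand of the gene, with the fixed letters of the element in capitals.
B2m (chr3:129549170-129549199, plus strand): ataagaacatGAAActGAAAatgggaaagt
Tap1 (chr20:4668645-4668674, minus strand): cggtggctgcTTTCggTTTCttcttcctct
Tap2 (chr20:4652318-4652347, minus strand): gcagcgaagtGAAAgcGAAAgcccgggacc
Oas1a (chr12:41330418-41330447, plus strand): ctctcggGAAAtgGAAActGAAAatcttgt

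The Tap1 match was on the opposite strand of the gene, and Oas1a held 2 overlapping matches. Counted from the start used by the table, the matches lay at -150 to -141 in B2m, -121 to -112 in Tap1, -41 to -32 in Tap2 and -41 to -26 in Oas1a. The Oas1a stretch overlapped the annotated gene, whose outermost start lies further upstream than the start used by the table, and the other 3 stretches did not overlap theirs. B2m, Tap1 and Tap2, which hold the element, had log2 ratios of 0.54, 0.53 and 0.23, and Oas1a, which also holds it, had -0.60. The gamma-activated site was found in 2 of the 7 promoters, and in 8.87% of all.
Irf1 (chr10:38417783-38417811, plus strand): acagcctgatTTCcccGAAatgatgaggc
Oas1a (chr12:41330257-41330285, plus strand): gtaacagcttTTCccaGAAgaatctctga

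None of the matches of one element overlapped a match of the other. Neither string of letters was in the windows of Ifngr1 and Mx1, which says only that these letters are not there. A match is a run of letters and was not measured as a binding site in these cells.

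The series compared the expression profiles of the 2 kinds of endothelium, and for the receptor this sets side by side the transcript of the chain that binds interferon gamma. Ifngr1 read 1219.6 in aortic and 4330.1 in endocardial cells, a log2 ratio of 1.83. Only the endocardial value passed the highest background control, which gave at least 2.49-fold higher intensity in endocardial cells. Of 3932 probe sets that exceeded the floor in both cell types, 43 had a higher ratio and 3888 a lower one. Ifngr1 rested on 1 probe set, and in cultured cells read in bulk, fewer cells of a type and less RNA per cell cannot be told apart. Among probe sets whose brighter value lay between that control and 5000, as for Ifngr1 and Mx2, 9.75% were at least 2-fold higher in endocardial cells and 5.99% lower.

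Of the other genes between receptor and nucleus, Jak2, one of the kinases that serve the interferon gamma receptor, stood in the opposite direction. The probe set of Jak2 with the highest signal read 4901.2 in aortic and 2117.8 in endocardial cells, both above the highest background control. Its other probe sets read 4052.5 and 3716.6 on the aortic array and 1675.7 and 1604.3 on the endocardial array. The aortic array was thus 2.31-fold to 2.42-fold brighter in all 3 probe sets, of which 2 were designed on the same deposited sequence. Against the highest background control, the probe sets with a dimmer value under it were at least 2.33-fold and 2.13-fold brighter in aortic cells. Jak1, the partner kinase, had intensities of 4145.5 and 3182.5, a log2 ratio of -0.38. Of 10 genes of receptors and JAK-STAT signalling on the array, 8 were measured, of which Ifngr1 was at least 2-fold higher in endocardial cells, Jak2 was lower and 6 lay between. The list median was -0.12. Ifngr2, the other chain of the interferon gamma receptor, was paired with no probe set by that name alone and was not analysed here. The ligands Ifng and Ifnb1 were under the floor on both arrays.

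Irf1 encodes a transcription factor that is itself induced by interferon gamma and acts on many class I genes. The _g_at probe set of Irf1 read 1478.6 in aortic and 1808.0 in endocardial cells, a 1.22-fold difference with a log2 ratio of 0.29. Only the endocardial value passed the highest background control, by 1.04-fold. The plain probe set of Irf1, designed on the same sequence, read 62.8 and 194.2, under the floor on both arrays. The log2 ratio of 0.29 was under the SD of 0.45 among probe sets of dimmer genes; it was 0.05 with the floor at that control, and 0.96 with no floor, where the plain probe set also counted. Of 5 transcription factors of the list on the array, 2 were measured. Irf3, a factor that starts type I interferon transcription, was at least 2.21-fold brighter in endocardial cells against the floor. Its endocardial value, 1401.5, did not reach the highest background control, and its other probe set was below 0 on both arrays.

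Of the antiviral effectors Mx1, Mx2 and Oas1a, only Mx2 and Oas1a could be measured, and both had their higher value in aortic cells. This was the direction opposite to Ifngr1. Mx2 belongs to the dynamin-like GTPases that block virus replication. It read 3578.4 in aortic and 1357.3 in endocardial cells, a log2 ratio of -1.40. Only the aortic value passed the highest background control, which gave at least 2.05-fold higher intensity on the aortic array. Among the same 3932 probe sets, 75 had a lower ratio and 3856 a higher one. Mx1, its paralog, read 24.8 in aortic and 520.6 in endocardial cells, both under the floor, and no ratio is given. Oas1a makes oligoadenylates that activate an antiviral ribonuclease. Its probe set, of the _s_at kind that can match several related transcripts, read 2144.1 in aortic and 1414.2 in endocardial cells, a log2 ratio of -0.60. With the dimmer value set to the highest background control the bound was 1.23-fold. Mx2 and Oas1a were each read by 1 probe set.

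Besides Mx2 and Oas1a, the measured interferon-induced genes were Eif2ak2 and Ifitm3. Of 11 genes of this list on the array, 4 were measured and 7, Mx1 among them, were under the floor on both arrays. Eif2ak2, the kinase PKR that halts translation on sensing double-stranded RNA, read 803.7 in aortic and 2069.9 in endocardial cells. This was a 2.58-fold difference, but only 1.19-fold against the highest background control, and its other probe set was under the floor on both arrays. Ifitm3, a membrane protein that hinders virus entry, read 31677.6 and 31843.4, a log2 ratio of 0.01. Its probe set, like that of Oas1a, is of the _s_at kind that can match several related transcripts. The 4 measured genes thus had 1 at least 2-fold higher (Eif2ak2), 1 lower (Mx2) and 2 between, with a median of -0.30. Adar, Cxcl10, Gbp2, Irgm2, Oas1b and Rsad2 were the others under the floor.

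**Figure D2:**
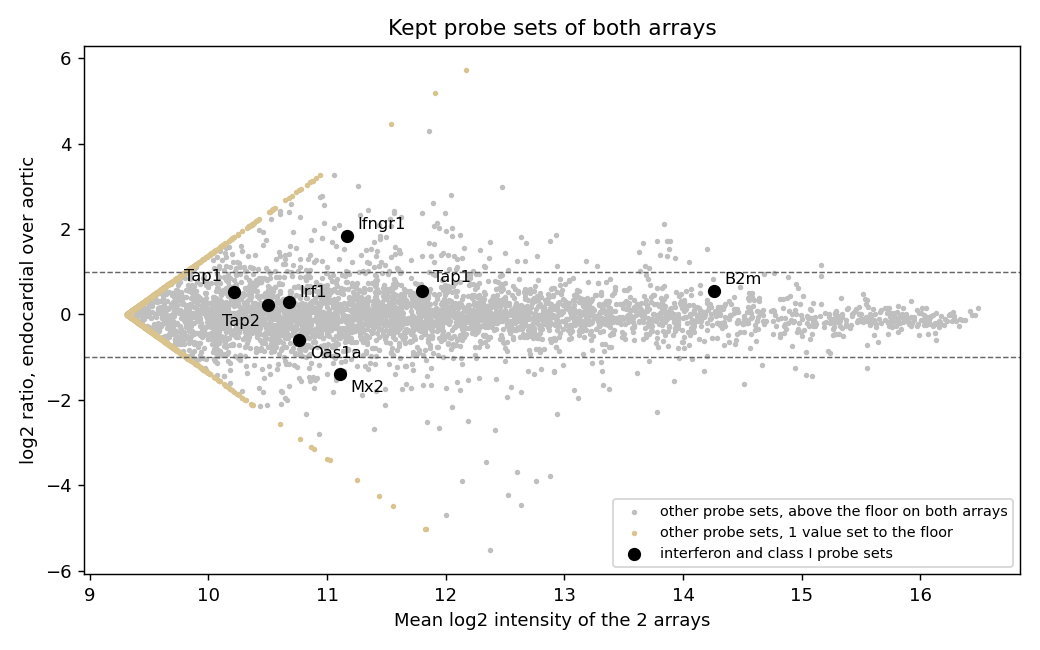
Mean log2 intensity of the 2 arrays (horizontal) against the log2 ratio of endocardial over aortic intensity (vertical) for the 4808 kept probe sets, with those of the named genes in black and 2-fold marked by dashed lines. Ifngr1 (1.83) and Mx2 (-1.40) lie outside the dashed lines and the other 6 probe sets inside.

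MHC class I molecules on the cell surface show peptides to CD8 T cells. Each consists of a heavy chain, which in the rat is encoded by RT1 genes, and the light chain beta-2 microglobulin, B2m. B2m read 16252.4 in aortic and 23681.9 in endocardial cells, a 1.46-fold difference with a log2 ratio of 0.54. Both values were far above the highest background control. The difference exceeded the SD of 0.34 among probe sets of brighter genes by less than 1 further SD, and 493 of 3932 probe sets had a higher ratio.

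Tap1 and Tap2 form the transporter that carries peptides into the endoplasmic reticulum. The plain probe set of Tap1 read 2962.9 in aortic and 4296.9 in endocardial cells, a log2 ratio of 0.54. Its _g_at probe set, designed on the same sequence, read 996.0 and 1425.2, a log2 ratio of 0.52. The 2 probe sets gave nearly the same ratio at different brightness, but the dimmer one did not reach the highest background control on either array. Tap2 read 1342.6 and 1574.7, a log2 ratio of 0.23, also under that control on both arrays. All 4 probe sets of B2m, Tap1 and Tap2, of which 2 are of Tap1, had the higher value in endocardial cells and none reached 2-fold.

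The class I heavy chains RT1-A, RT1-CE12 and RT1-CE16 had ratios closer to 0 than B2m, a difference that was not tested. RT1-A read 15387.0 in aortic and 17142.7 in endocardial cells, a log2 ratio of 0.16. RT1-CE12 had a log2 ratio of -0.04 and RT1-CE16 of 0.05. These 3 probe sets are of the _f_at kind, which can match several members of a family, so the heavy chains of this family were not told apart. At the other end of the list RT1-M5, a class I gene outside the classical loci, read 2144.5 and 1411.0, a log2 ratio of -0.60. Its endocardial value lay under the highest background control, against which the aortic value was 1.23-fold brighter. Of 14 class I chains and class I-like genes on the array, 11 were measured, 0 passed 2-fold in either direction and the median was -0.04; B2m had the highest ratio of the 11.

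Peptides for class I come from the proteasome, whose interferon-induced subunits include Psmb8 and Psmb9, and are loaded with the help of chaperones. Psmb8 read 956.7 in aortic and 1838.1 in endocardial cells, a 1.92-fold difference, but 1.05-fold against the highest background control. The probe sets of Psmb9, which were designed on the same sequence, went both ways, with log2 ratios of 0.27 and -0.53. Psme2, a subunit of the interferon-induced proteasome activator, read 4371.8 and 6083.0, above that control on both arrays, with a log2 ratio of 0.48. Thop1, a cytosolic peptidase that degrades class I peptides, read 2071.5 and 797.8, a 2.60-fold lower value in endocardial cells, but 1.19-fold against the highest background control. All 11 genes of peptide supply and loading on the array were measured, with 0 at least 2-fold higher, 1 lower (Thop1), and 8 of the 11 ratios above 0. Their median was 0.14.

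**Figure D3:**
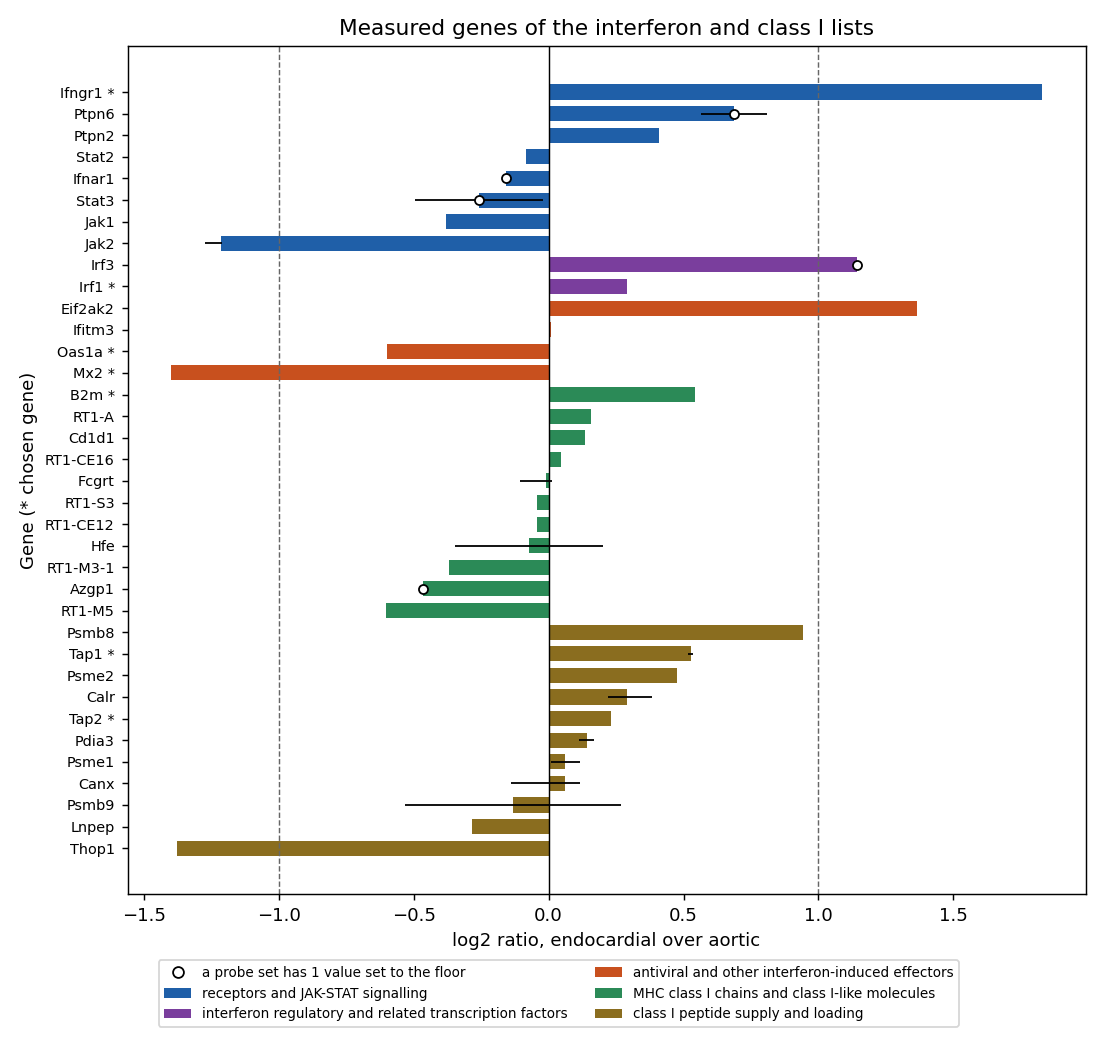
Bars give the log2 ratio of endocardial over aortic intensity for the 36 measured genes of the interferon and class I lists, coloured by list, with 2-fold marked by dashed lines. Black lines span the probe sets of a gene, open circles mark ratios with a value set to the floor, and stars mark the 8 named genes where measured. Ifngr1, Eif2ak2 and Irf3 pass 2-fold on the right, and Mx2, Thop1 and Jak2 on the left.

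Over all 6 lists of the pathway together, 53 genes were on the array and 36 were measured. Of these, 3 were at least 2-fold higher in endocardial cells (Ifngr1, Eif2ak2 and Irf3) and 3 were lower (Mx2, Thop1 and Jak2). Of all 2935 measured genes, 5.93% were higher and 4.16% lower, and these shares also stand beside the counts of the single lists above. The median of the 36 pathway genes was 0.03. Without the 8 named genes, 29 were measured, of which 2 were higher and 2 lower, with a median of -0.01. Where the highest background control served as the floor, 26 of the genes were measured, 1 was higher (Ifngr1) and 2 were lower (Mx2 and Jak2). Of all 1904 genes measured at that floor, 3.99% passed 2-fold upwards and 2.36% downwards.

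Markers of other cell types differed between the arrays beside these genes. In the summed intensities given here, a gene value under the floor was counted as the floor, 635.4. The 8 measured fibroblast markers had a summed intensity of 257068 in aortic and 224139 in endocardial cells. For the 6 measured smooth muscle markers it was 101236 and 156237, but these markers did not all go one way. Of the 6 ratios, 5 were above 0, with Myl9 2.90-fold higher in endocardial cells. Myh11 read 2532.8 in aortic and 614.2 in endocardial cells, the latter under the floor. It was at least 3.99-fold lower in endocardial cells against the floor, but 1.45-fold against the highest background control. Col1a1 read 74687.4 and 68163.2, and Tagln 49583.5 and 58741.5. Postn was 7.87-fold higher in endocardial cells. Dcn read 19147.4 in aortic and 986.5 in endocardial cells, the latter under the highest background control. The other 6 fibroblast markers lay within 2-fold. Of 16 macrophage and leukocyte markers on the array, 13 were measured, 6 at least 2-fold higher in endocardial cells and 0 lower, beside 5.93% and 4.16% of all measured genes. The 6 were Lyz2, Ctss, Cd53, RT1-Da, Cd74 and Fcgr2b. RT1-Ba was 1.92-fold lower as a gene, but its probe sets ranged from 2.41-fold lower to 3.35-fold higher in endocardial cells. Each of the 6 had at least 1 probe set with its aortic value under the floor, and at the highest background control 8 were measured and 1, Lyz2, was higher. The summed intensity of the 13 measured markers was 14109 in aortic and 55695 in endocardial cells. Without the lysozyme gene Lyz2 it was 13473 and 22076. The aortic values of Lyz2, Aif1, Cd4, Cd53, Cd74, Ctss, Fcgr2b, RT1-Bb and RT1-Da were under the floor and counted as the floor. No endocardial value of the 13 was, so these sums understate the difference between the intensities as read. Ptprc, the defining leukocyte phosphatase, read 1171.1 and 1103.2 with its brightest probe set, both below the highest background control, and Itgam was under the floor on both arrays. Macrophages and leukocytes also express interferon and class I genes, and their part in the Ifngr1, B2m and Tap1 values was not tested. The part of cells that express the fibroblast or smooth muscle markers was not tested either.

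**Figure D4:**
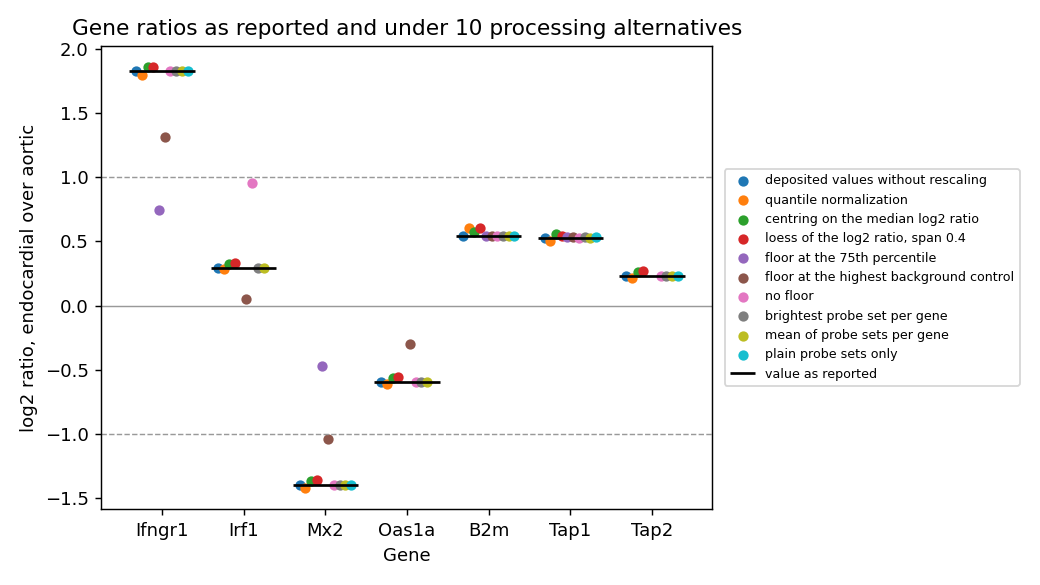
Log2 ratio of endocardial over aortic intensity for the 7 measured genes, with a black line at the reported value and coloured points for 10 alternatives of processing, where an alternative gave a value. Dashed lines mark 2-fold. Ifngr1 ranges from 0.75 to 1.86 and Mx2 from -1.43 to -0.47, with the values nearest 0 from the floor at the 75th percentile.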

How the data were processed

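The authors deposited linear probe set intensities, which can fall below 0; their software for summarising probes was not given in the sources used here. The 2% trimmed mean of the deposited columns was 2504.33 for aortic and 2504.04 for endocardial cells over 8799 probe sets, which shows a common scale. Gene values used no control probe set (59 of these). The others were scaled to the same 2% trimmed mean, values under the floor (the median, 635.4) were set to it, and log2 ratios were taken. Each gene took the median over its kept probe sets. Symbols came from the platform annotation; 6985 of 7006 matched a RefSeq gene table of assembly GRCr8 by gene identifier and 0 changed. With 1 array per group no test was possible and counts were made at a preset 2-fold difference. The number of arrays limits the precision.

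The genes and lists were chosen with earlier results of these data known. All probe sets of the 8 genes are named, and of each pathway list the measured genes past 2-fold, the highest and the lowest. Jak1, Ifitm3, the RT1-A and RT1-CE genes, Psmb9 and Psme2 were named after their values were seen, and the brightness bands were also set then. Likeness of pattern was not computed, since 2 arrays give none. Of the 6 marker lists, fibroblast genes (8 measured) had 1 gene 2-fold or more higher in endocardial cells (Postn) and 1 lower (Dcn). Smooth muscle genes (6 measured) had 1 higher (Myl9) and 1 lower (Myh11), and cardiomyocyte genes (5 measured) 0 and 1 (Myh6). Mesothelial and epicardial genes (2 measured) had 1 higher (Wt1) and 0 lower, and endothelial genes (4 measured) 0 and 1 (Ace). Of all 2935 measured genes, 5.93% were higher and 4.16% lower. The endocardial values of Myh11 and Myh6 were under the floor. Python 3.11.15 with pandas 2.3.3 and statsmodels 0.14.6 was used, and the counting was tested on simulated data. Those data had narrower noise and changes well past 2-fold, so they do not test counts near 2-fold or near the floor.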

Additional observations from a re-analysis of the deposited data

How the results depend on the processing

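The 4 scaling alternatives (no rescaling, quantile normalization, centring, loess) and plain probe sets alone left every count of genes or probe sets past 2-fold within 1.5 times of the reported one, as the 2 other ways of combining probe sets did for the counts of genes. The scale factors were 1.00056 and 0.999436, so leaving out the rescaling could hardly change a value. Of the measured genes of the 8, all but Tap1 had 1 kept probe set, so combining probe sets otherwise could not change them. With the floor at the 75th percentile (2576.1), where 4 of the 8 genes were measured, 0 genes and 0 probe sets of the 8 were at least 2-fold higher and 0 lower, and of the 17 measured pathway genes 0 were higher and 0 lower; the higher floor shortens every ratio whose dimmer value lies under it. The log2 ratio there was 0.75 for Ifngr1 and -0.47 for Mx2. Where the highest background control was the floor, 1 pathway gene was higher. With no floor 2 of the 8 genes, 3 of their 10 probe sets and 6 pathway genes were higher, among them Mx1, whose values lie under the floor, and the log2 ratio of Irf1 was 0.96. No measured gene of the 8 changed direction under any alternative that gave it a value, but this checks direction only weakly. A higher floor shortens a ratio and cannot reverse it. Quantile normalization, centring and loess moved ratios little. Tap2, whose ratio was nearest to no difference, went from 0.23 to 0.21, 0.26 and 0.27 under them. Oas1a and Irf1 gave no value at the 75th percentile or with plain probe sets, and Tap2 none at either of the higher floors. No paired analysis was possible because each group had 1 array. Signal over background limits 8 of the 10 probe sets, which were under the highest background control on at least 1 array.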
